A study of Mus musculus with 6 samples.

Results

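Aminoacyl-tRNA synthetases, with Wars as the member of main interest, were followed in IEC 4.1 cells with and without interferon-gamma. The 44 genes of 14701 in the tables whose deposited KEGG annotation carries the term Aminoacyl-tRNA biosynthesis were taken. They fell into Wars, 20 other cytosolic synthetase genes, 17 mitochondrial synthetase genes and 6 genes that modify an amino acid already on its tRNA. Mitochondrial enzymes were taken as those with symbols ending in 2. The exception was Tarsl2, which encodes a cytosolic enzyme and was counted as such.

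The 6 RNA-seq samples came from IEC 4.1, a mouse cell line whose cell type the labels give as intestinal epithelium. Of these, 3 were untreated (replicates 2, 3 and 4, called controls) and 3 (replicates 1, 2 and 4, called treated) had 6 h of interferon-gamma at a dose of 10 ng/ml. The labels give no genetic change in either group, and no source used here says whether the replicates were separate cultures. The p-values may therefore measure technical spread between samples of 1 line.

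Each aminoacyl-tRNA synthetase joins its amino acid to the matching tRNAs, the step that ties codons to amino acids. Most amino acids have a cytosolic enzyme and a separate mitochondrial enzyme, both encoded in the nucleus, and several cytosolic enzymes sit together in the multisynthetase complex. Wars encodes the cytosolic tryptophanyl-tRNA synthetase, long known as a synthetase whose expression is induced by interferon-gamma.

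The libraries held 17490689 to 18678543 estimated counts. All 44 members passed the filter on low counts, and the lowest count of any member in any library was 87. The interferon response genes Irf9, Irf1, Stat2, Tap1 and Gbp2, taken as a check of the labels, rose by 2.98 to 8.21 on the log2 scale. Of 12 intestinal epithelial markers 8 had a row, and in controls they summed to 0.686 to 0.959 CPM (read counts scaled to TMM-adjusted library size), against 0.412 to 0.661 CPM after treatment. Epcam and Cdx2 are without a row in the tables used, and Cdh1 and Vil1 had mean levels of at most 0.0531 CPM. Of 9 mesenchymal markers 8 had a row, and they summed to 5133 to 5362 CPM without and 5052 to 5429 CPM with interferon-gamma. Of these, 7 were tested, 2 rose and 5 fell (adjusted p under 0.05, a mark that 38.1% of all genes tested passed). Summed leukocyte markers (4 of 7 with a row) stood at 22.8 to 26.1 and 20.3 to 21.9 CPM, mostly Cd14, with Ptprc at 0 in the treated libraries. Endothelial markers (2 of 4) stood at 0.211 to 0.266 and 0.223 to 0.530 CPM. The part of any cell mixture in the results below was not tested, and in bulk RNA fewer cells of a type and less RNA per cell cannot be told apart.

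Wars rose several-fold with interferon-gamma, while every other member changed by less than 1.5-fold. The level of Wars was 81.0, 76.6 and 77.7 CPM in control replicates 2, 3 and 4 and 597.8, 587.2 and 556.5 CPM in treated replicates 1, 2 and 4. The groups were far apart, with every treated library at several times every control. The mean went from 78.4 ± 2.34 to 580.5 ± 21.4 CPM (SD, n = 3 per group), a 7.40-fold rise or 2.89 ± 0.040 on the log2 scale (± SE between replicates, adjusted p = 1.27e-20, edgeR's quasi-likelihood test with Benjamini-Hochberg adjustment over the 11423 genes tested). Ordered from the highest rise to the lowest fall in log2 fold change, Wars stood at rank 152 of those 11423 genes. Wars (NCBI Gene 22375) lies on chromosome 12 at 108860030 to 108894175 in GRCm38.p6 by RefSeq, on the minus strand by GENCODE. The tables list 8 transcripts for it without separating their levels.

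Of all 44 members, 7 rose and 6 fell past an adjusted p of 0.05, which is 29.5% of them. Among all genes tested 38.1% were called, 19.9% as rises and 18.1% as falls. Wars alone changed by at least 2-fold with a call, against 5.08% of all genes tested. The other 43 members lay between -0.45 and 0.54 on the log2 scale, and 12 of them were called (27.9%). The median change was 0.005 over the 44 members and 0.01 over all genes tested. Groups did not overlap for 19 members, 8 with the treated libraries above and 11 with them below, against 48.0% of all genes tested. The number of falls rested on scaling and on single libraries: it was 11 after upper-quartile scaling and on total counts, and 3 without control replicate 4 or without treated replicate 2.

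**Figure D1:**
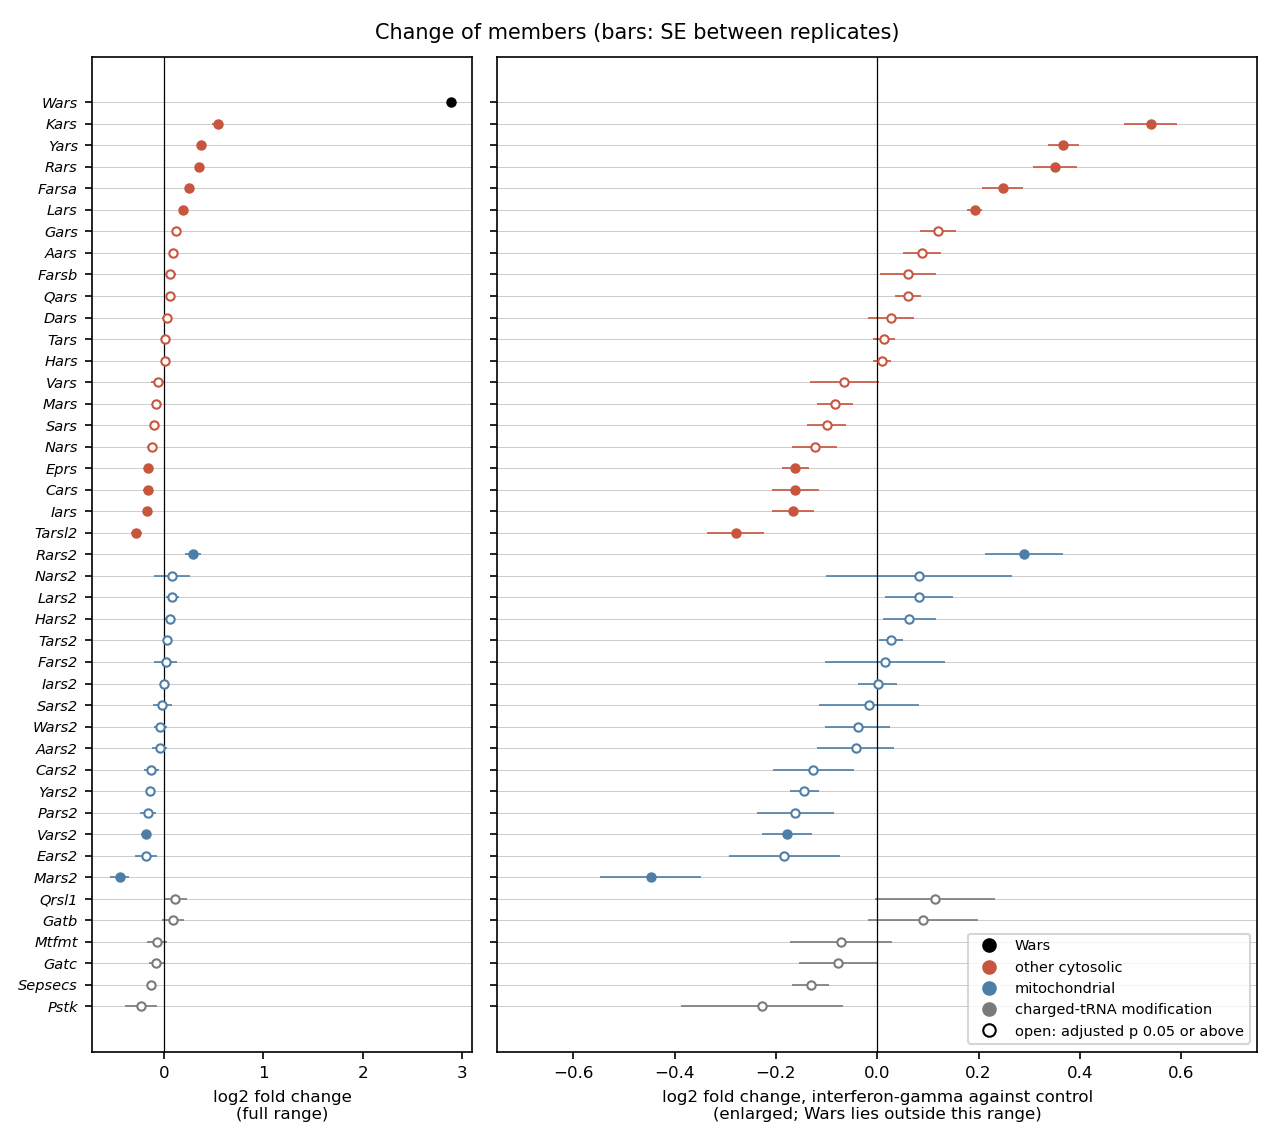
Change of the members named on the y axis. The x axes give the log2 fold change of interferon-gamma against control, over the full range on the left and enlarged on the right, the bars are SE between replicates (n = 3 per group), and filled points passed an adjusted p of 0.05. Wars stands at 2.89 while the others lie between -0.45 and 0.54.

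Levels between genes were compared on the deposited TPM values, which are scaled for gene length. In controls Wars was among the least abundant cytosolic synthetase transcripts, at 51.13, 52.19 and 51.77 TPM, and ranked 20 of 21 in every control library. Just above it stood Cars, at a mean of 59.2 TPM, and below it stood only Tarsl2, at 7.62 TPM. In treated replicates 1, 2 and 4 Wars reached 389.5, 364.9 and 349.9 TPM and ranked 2 of 21, below Kars at a mean of 608.2 TPM and above Rars at 228.6 TPM. None of these neighbours in the order overlapped with Wars in any library of the same group. The share of Wars in the summed TPM of the 21 cytosolic synthetases was 1.66 to 1.71% without interferon-gamma and 10.4 to 11.0% with it. Without Wars that sum was 3016 ± 59.9 TPM in controls and 3074 ± 67.6 TPM in treated libraries, with overlapping ranges. In CPM, the scale of the calls, the sum without Wars was 4651 ± 67.55 in controls and 4949 ± 60.62 in treated libraries. Those ranges, 4591 to 4724 and 4894 to 5014 CPM, did not overlap, so the 2 measures differ here.

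**Figure D2:**
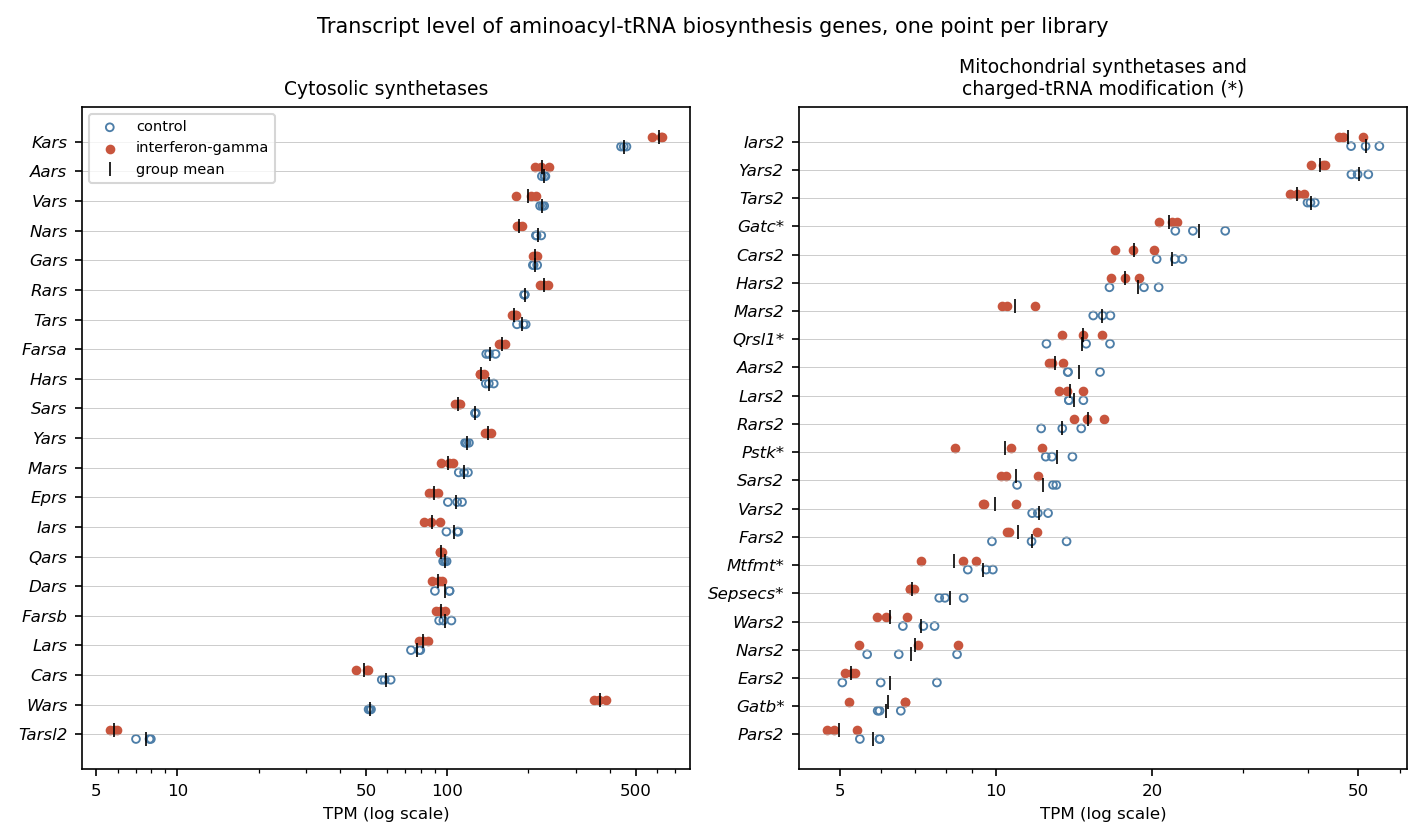
Level of the members named on the y axes in every library. The x axes give TPM on a log scale, 1 point per library (open for control, filled for interferon-gamma, n = 3 each) with the group mean as a tick, for cytosolic synthetases on the left and for mitochondrial and modification genes (*) on the right. Wars moves from 51.7 to 368.1 TPM on average, from near the bottom of the cytosolic order to the place below Kars.

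Set against its own family within each library, Wars lay below the middle of the other cytosolic synthetases in controls and above it after treatment. Its log2 CPM minus the median of the other 20 was -1.35, -1.37 and -1.38 in control replicates 2, 3 and 4 and 1.46, 1.47 and 1.36 in treated replicates 1, 2 and 4. The difference of group means was 2.80. Against the median of the 17 mitochondrial synthetases the values were 1.83, 1.66 and 1.69 in controls and 5.11, 4.82 and 4.74 in treated libraries, a difference of 3.16. No p is given for these, since the family was chosen with results known.

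The other cytosolic synthetases split into small rises and small falls, with 5 of 20 called as rises, 4 as falls and 11 not called (45.0% called, against 38.1% of all genes tested). Their median log2 fold change was 0.02, and it turned to -0.03 after upper-quartile scaling and -0.05 on total counts, when the median of all genes went to -0.04 and -0.06. The rises came in Kars, Yars, Rars, Farsa and Lars, which charge lysine, tyrosine, arginine, phenylalanine and leucine. Falls came in Tarsl2, Iars, Cars and Eprs, which charge threonine, isoleucine, cysteine, and glutamate and proline.

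Kars (NCBI Gene 85305, chromosome 8, 111993439 to 112011354) had the largest rise after Wars. The gene encodes both the cytosolic and the mitochondrial lysyl-tRNA synthetase by alternative splicing, and gene-level counts do not separate the forms. Its level was 515.7, 473.3 and 496.6 CPM in controls and 714.2, 755.9 and 689.5 CPM in treated libraries, without overlap. The rise was 1.45-fold, or 0.54 ± 0.053 on the log2 scale (edgeR adjusted p = 3.63e-08), and 1407 of the genes tested changed by more.

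Yars encodes tyrosyl-tRNA synthetase, the closest structural relative of the tryptophan enzyme. It measured 159.1, 152.3 and 148.1 CPM in controls and 197.7, 199.3 and 195.9 CPM in treated libraries, a rise of 0.37 ± 0.031 on the log2 scale (edgeR adjusted p = 3.94e-06). Rars, the arginine enzyme of the multisynthetase complex, measured 227.1, 214.2 and 215.2 CPM in controls and 269.9, 275.1 and 292.4 CPM after treatment, a rise of 0.35 ± 0.044 (edgeR adjusted p = 1.11e-05). In both genes every treated library stood above every control.

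Farsa and Farsb encode the catalytic and the partner subunit of a single phenylalanine enzyme. Farsa went from 140.8, 129.3 and 140.4 to 162.7, 163.6 and 161.1 CPM, a rise of 0.25 ± 0.041 on the log2 scale (edgeR adjusted p = 5.75e-04). Farsb had a mean of 113.6 CPM in controls and 118.5 CPM after treatment, with overlapping groups (log2 0.06, adjusted p = 0.418). The Farsa to Farsb ratio differed by 0.19 ± 0.083 on the log2 scale and did not overlap between groups (exact 2-sided permutation test over libraries, p = 0.1, the smallest that 3 against 3 allows, and 0.1 adjusted over the 3 ratios tested). This ratio was not planned and joins a called gene to an uncalled gene, so its p is no separate support.

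Lars, the leucine enzyme, measured 169.7, 170.4 and 173.2 CPM in controls and 197.5, 192.2 and 197.0 CPM in treated libraries, a rise of 0.19 ± 0.015 on the log2 scale (edgeR adjusted p = 0.0031). Its call was lost on total counts (log2 0.12, adjusted p = 0.0539). The calls of Kars, Yars, Rars and Farsa held in all 15 alternative fits.

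In each of the 4 falls the groups did not overlap, and each call was lost in at least 1 alternative. Iars went from 266.5 ± 5.20 to 237.5 ± 10.6 CPM (log2 -0.17, adjusted p = 0.0131), and its call was lost without treated replicate 2 (adjusted p = 0.106). Eprs, which carries glutamate and proline activities in a single protein, went from 303.7 ± 8.24 to 271.5 ± 4.60 CPM (log2 -0.16, adjusted p = 0.0121), lost without treated replicate 2 (0.0682). Like Eprs, Iars is a member of the multisynthetase complex.

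Cars went from 84.2 ± 2.13 to 75.3 ± 3.67 CPM (log2 -0.16, adjusted p = 0.0258), and the call was lost without control replicate 2 (0.0531), control replicate 4 (0.0780) or treated replicate 4 (0.0847). Tarsl2, a second cytosolic threonine enzyme with much less transcript than Tars, went from 13.0, 13.8 and 13.8 to 10.5, 11.7 and 11.3 CPM (log2 -0.28 ± 0.056, adjusted p = 0.0186). That call was lost with DESeq2 (0.0556), without control replicate 4 (0.0503) and without treated replicate 1 (0.0725).

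Among the 11 cytosolic genes not called, log2 fold changes ran from -0.12 to 0.12. Gars, which like Kars encodes a cytosolic and a mitochondrial form, was at 0.12 and Aars at 0.09. Farsb and Qars were at 0.06, Dars at 0.03, and Tars and Hars at 0.01, and these 5 took the opposite sign on total counts, as did Dars, Tars and Hars after upper-quartile scaling. Vars was at -0.07, Mars at -0.08, Sars at -0.10 and Nars at -0.12. Gars, Mars, Sars and Nars had groups that did not overlap. Gars, at an adjusted p of 0.0637, was called without control replicate 2 (0.0414). Nars, also at 0.0637, was called without control replicate 3 (0.0431) or treated replicate 4 (0.0190), with DESeq2 (0.0360) and with each of the other scalings. Sars and Mars were called as falls after upper-quartile scaling (0.0223 and 0.0366) and on total counts (0.0081 and 0.0183).

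Of the 8 synthetase genes of the multisynthetase complex, Kars, Rars and Lars rose, Eprs and Iars fell, and Dars, Mars and Qars were not called (62.5% called). Outside the complex, and apart from Wars, 2 of 12 cytosolic genes rose and 2 fell (33.3% called). The share over all genes tested was 38.1%, and the difference between these groups was not tested. Of the complex's 3 scaffold genes, Eef1e1 fell by 0.21 ± 0.064 on the log2 scale (52.0 ± 2.73 to 45.0 ± 2.59 CPM, adjusted p = 0.0125), a call lost without control replicate 2 (0.0606) or treated replicate 2 (0.0730). Aimp1 was at 0.08 on the log2 scale (adjusted p = 0.253) and Aimp2 at -0.15 (0.0895), both named after their values were seen. Aimp2 was called without control replicate 3 (0.0222), without treated replicate 2 (0.0341), after upper-quartile scaling (0.0231) and on total counts (0.0112).

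Promoter sequence from RefSeq (GRCm38.p6, 250 bases before to 50 after a start listed for the gene) was matched for 32 of the 44 members, in 33 windows. The listed start can lie inside the gene model. The other 12, Wars among them, had no entry. The windows were searched on both strands for the letters of the gamma-activated site of interferon-gamma target genes (GAS, TTCNNNGAA, the same on both strands) and of an interferon-stimulated element (ISRE type, GAAA and again GAAA with 2 bases between them). GAS letters were in 4 members' windows (Aars, Kars, Mtfmt and Nars2) and in 8.30% of all 32851 windows. ISRE-type letters were in that of Qars alone and in 3.44% of all windows. The amino acid response letters TGATGNAA, bound by Atf4 with Cebp factors and searched after seeing the values, were in 5 members' windows (Aars, Gars, Iars, Tars and Yars) and in 3.97% of all.

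The promoter of Kars, the largest rise with a window, is shown beside those of Aars, which holds both kinds of letters and was not called, and of Yars, which rose with amino acid response letters only. Each run covers 120 bases before to 20 after the start, read 5′ to 3′ on the gene's strand, with GAS letters and amino acid response letters (or their reverse complement) in capitals. The windows are chr8:112011335-112011474 (minus strand) for Kars, chr8:111033722-111033861 (plus) for Aars and chr4:129189783-129189922 (plus) for Yars. The gene models of Aars and Yars begin further upstream, at 111027778 and 129189734, so their windows sit at starts inside the models. A match describes the letters only, and no motif letters overlap another kind in these runs.
Kars: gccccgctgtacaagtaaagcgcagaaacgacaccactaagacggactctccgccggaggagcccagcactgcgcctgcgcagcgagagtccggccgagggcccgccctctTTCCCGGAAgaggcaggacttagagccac
Aars: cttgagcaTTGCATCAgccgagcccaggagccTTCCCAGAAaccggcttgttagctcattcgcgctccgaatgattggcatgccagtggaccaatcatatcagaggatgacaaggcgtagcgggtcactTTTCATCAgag
Yars: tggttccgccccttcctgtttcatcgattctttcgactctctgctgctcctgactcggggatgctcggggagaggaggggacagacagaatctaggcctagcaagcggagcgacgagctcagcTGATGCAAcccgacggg

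The GAS letters of Kars, TTCCCGGAA, begin 9 bases before the start on which its window is set. Those of Aars, TTCCCAGAA, begin 88 bases before its listed start, which lies inside the gene model. The 5 members whose windows hold amino acid response letters had log2 fold changes of 0.37 (Yars), 0.12 (Gars), 0.09 (Aars), 0.01 (Tars) and -0.17 (Iars). The 4 with GAS letters were at 0.54 (Kars), 0.09 (Aars), 0.08 (Nars2) and -0.07 (Mtfmt). Of the 4 with GAS letters only Kars was called, and the values of Nars2 and Mtfmt crossed 0 with a library left out. Of the 5 with amino acid response letters, Yars rose, Iars fell and the others were not called. Among all genes tested 38.1% were called. Any part of the letters in these changes was not tested.

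Of the 17 mitochondrial synthetases, 1 rose, 2 fell and 14 were not called (17.6% called, against 38.1% of all genes tested). Their median log2 fold change was -0.02, with a range of -0.45 to 0.29. These transcripts had mean levels of 7.46 to 104.6 CPM, while the cytosolic ones apart from Wars and Tarsl2 had 79.7 to 607.5 CPM, so the mitochondrial values rest on fewer counts. Counting Tarsl2 with them, as its symbol ends in 2, gave 1 rise and 3 falls of 18.

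Mars2, which charges methionine in mitochondria, fell from 27.6, 24.9 and 24.1 CPM to 17.1, 18.4 and 20.7 CPM. It fell by 26.7%, or 0.45 ± 0.10 on the log2 scale (edgeR adjusted p = 1.78e-04), more than any other of the 44 members, and its call held in all 15 alternative fits. The groups did not overlap. Cytosolic Mars was at -0.08, not called.

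Rars2, the mitochondrial arginine enzyme, went from 12.4, 13.8 and 12.8 to 15.3, 15.1 and 17.3 CPM (log2 0.29 ± 0.078, adjusted p = 0.0139), without overlap. The call was lost on total counts (0.0577) and without control replicate 2 (0.0509), control replicate 4 (0.0584) or treated replicate 4 (0.0685), which leaves no mitochondrial rise. Vars2, for valine, went from 29.5 ± 1.44 to 26.0 ± 0.811 CPM (log2 -0.18 ± 0.048, adjusted p = 0.0451). Its call was lost with DESeq2 (0.0950), with no filter (0.0527) and without control replicate 2 (0.113), control replicate 4 (0.117), treated replicate 2 (0.135) or treated replicate 4 (0.0907), which leaves Mars2 as the only called fall in these fits.

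The 14 others ran from -0.18 to 0.08 on the log2 scale. Ears2 was at -0.18 and was called without control replicate 3 (adjusted p = 0.0494). Pars2 was at -0.16, Yars2 at -0.14, Cars2 at -0.13, Aars2 and Wars2 at -0.04 and Sars2 at -0.02. Yars2 was called as a fall after upper-quartile scaling (0.0130) and on total counts (0.0073). Iars2 was at 0.00, Fars2 at 0.02, Tars2 at 0.03, Hars2 at 0.06, and Lars2 and Nars2 at 0.08. On total counts Iars2, Fars2, Tars2 and Hars2 took the opposite sign, as did Iars2, Fars2 and Tars2 after upper-quartile scaling and Iars2 with RLE.

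Wars2, which charges tryptophan in mitochondria (NCBI Gene 70560, chromosome 3, 99140107 to 99221230), was not called. It measured 16.9, 17.9 and 17.2 CPM in controls and 15.96, 18.3 and 16.4 CPM in treated libraries, with overlapping groups (log2 -0.04 ± 0.064, adjusted p = 0.747). The log2 ratio of Wars to Wars2 lay between 2.09 and 2.25 in controls and between 4.998 and 5.22 after treatment, a difference of 2.93 ± 0.080 (exact 2-sided permutation test, p = 0.1, the smallest possible, and 0.1 adjusted over the 3 ratios). For Yars and Yars2 the difference was 0.51 ± 0.038, without overlap and with the same p. The ratio of Yars to Yars2 was not planned either. Like it, the ratio of Wars to Wars2 joins a called gene to an uncalled gene, so neither p is separate support.

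Over 17 pairs of a cytosolic and a mitochondrial gene for the same amino acid, the cytosolic transcript was the more abundant in all 17 in controls. Eprs was paired with both Ears2 and Pars2, so the pairs are not all separate. Fars2 was paired with Farsa, and Farsb, which was not called, was left out. The TPM ratio ran from 2.06 (Iars to Iars2) to 31.7 (Nars to Nars2), with a median of 8.42. For Wars to Wars2 it went from 7.22 in controls to 58.9 after treatment. Yars to Yars2 went from 2.36 to 3.36 and Mars to Mars2 from 7.18 to 9.23. Rars with Rars2 was the only pair in which both were called in the same direction, and no pair was called in opposite directions. In 6 pairs neither was called.

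**Figure D3:**
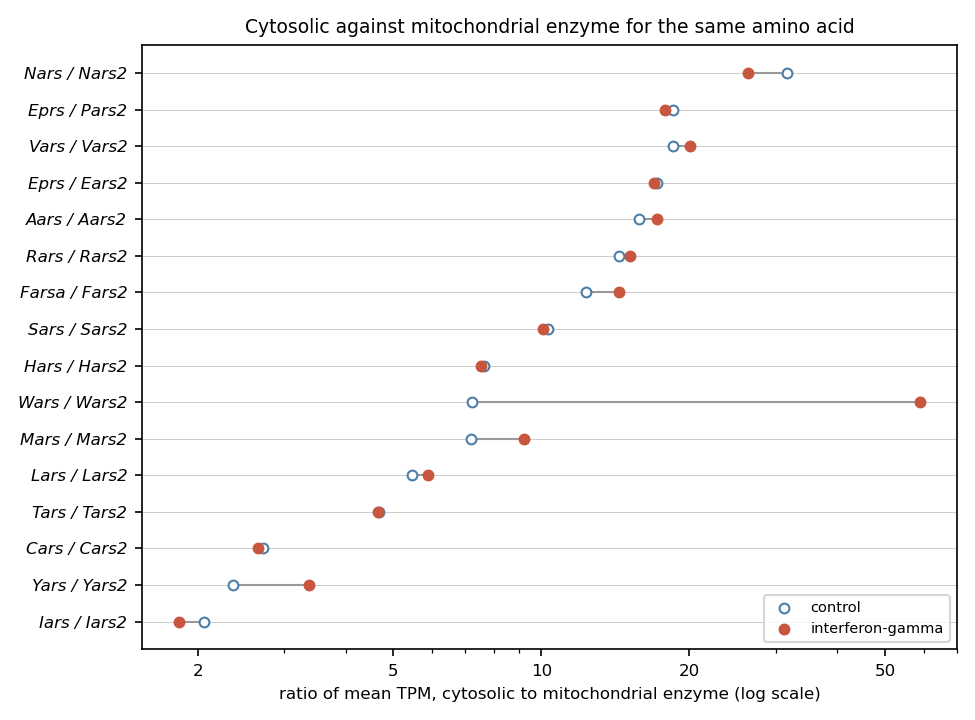
Ratio of the cytosolic to the mitochondrial transcript for the same amino acid. The x axis gives the ratio of mean TPM on a log scale for controls (open) and interferon-gamma (filled), n = 3 per group, with a line joining the 2 values of each pair named on the y axis. Wars to Wars2 moves from 7.22 to 58.9.

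None of the 6 genes that act on a charged tRNA was called, against 38.1% of all genes tested. Their mean levels were low, at 6.37 to 22.96 CPM. Gatb, Gatc and Qrsl1 encode the amidotransferase that makes mitochondrial glutaminyl-tRNA from glutamyl-tRNA, and stood at 0.09, -0.08 and 0.11 on the log2 scale. Mtfmt, which formylates the mitochondrial initiator, was at -0.07. Sepsecs and Pstk, which turn a serine on its tRNA into selenocysteine, were at -0.13 and -0.23. Sepsecs had groups that did not overlap and was called on total counts (adjusted p = 0.0266) and after upper-quartile scaling (0.0447). Pstk was called without treated replicate 4 (0.0374).

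The genes most like Wars over the 6 libraries were found by the root-mean-square difference of log2 CPM, each taken relative to its control mean, among tested genes with a mean of at least 1 CPM. The nearest 6 were Apol9b (0.0465), Vwa5a (0.0492), Parp12 (0.0662), Isg15 (0.0678), Cdc42ep2 (0.0692) and Apol9a (0.0702). Their log2 fold changes were 2.80 to 2.97, and none is a synthetase. Both follow from the selection, which picks genes that change like Wars, while the other members reached at most 0.54. Isg15 encodes a ubiquitin-like modifier and Parp12 an ADP-ribosyltransferase, both interferon-stimulated.

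The gene next to Wars also rose. Wdr25, which encodes a WD-repeat protein, starts head to head with Wars at 108894152 on the plus strand, and the gene models overlap by 24 bases. It measured 4.95, 3.94 and 5.06 CPM in controls and 9.01, 7.93 and 8.83 CPM in treated libraries, without overlap, a rise of 0.88 ± 0.13 on the log2 scale (edgeR adjusted p = 6.47e-06). Beyond Wdr25, Begain had too few counts to test. On the other side of Wars, Slc25a29 was at 0.25 (adjusted p = 0.152) and Slc25a47 at -0.11 (0.847). Strand-specific counting is not stated in the sources used here, so reads at such overlaps cannot be assigned to a strand. Among the other members, overlaps with a protein-coding neighbour were longest in Pstk (4120 bases with Ikzf5), Aars (3974 with Ddx19b) and Farsb (2332 with Sgpp2).

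Tryptophan is also the substrate of the kynurenine pathway, whose first enzymes are indoleamine dioxygenases. Of 14 genes listed for tryptophan breakdown and uptake, 8 had a row and 6 were tested. Of these 6, 1 rose, 2 fell and 3 were not called, while 38.1% of all genes tested were called. Ido2, a low-activity dioxygenase, had 5, 1 and 0 counts in control replicates 2, 3 and 4 and 152, 115 and 107 counts in treated replicates 1, 2 and 4 (edgeR adjusted p = 7.37e-12). Ido1, Tdo2, Kynu, Kmo, Haao and Acmsd are without a row in the tables used. Every gene with a row had a count in at least 1 control, whereas 673 genes had none in any treated library, so a gene that starts from 0 in controls could not be seen here.

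Slc7a5 and Slc3a2 encode the chains of the carrier that brings tryptophan and other large neutral amino acids into cells, and both fell. Slc7a5 went from 206.1, 185.1 and 195.3 to 128.8, 130.5 and 116.0 CPM (log2 -0.64 ± 0.070, edgeR adjusted p = 8.58e-09). Slc3a2 went from 157.8 ± 7.72 to 126.5 ± 3.00 CPM (log2 -0.32 ± 0.045, adjusted p = 4.41e-05). In both, all treated libraries stood below all controls.

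Synthetase genes are also known targets of the amino acid deprivation response, in which the kinase Eif2ak4 senses uncharged tRNA and the transcription factor Atf4 acts on synthetase, transporter and biosynthesis genes. Of 20 genes listed for it, 4 rose, 4 fell and 12 were not called (40.0% called, near the 38.1% of all genes tested). Their median log2 fold change was -0.03. Atf4 itself had overlapping groups, 443, 432 and 400 CPM in controls and 417, 418 and 446 CPM after treatment (log2 0.00, adjusted p = 0.952, turning negative under the other scalings). Asns, which makes asparagine, was at -0.10 (adjusted p = 0.142), called as a fall after upper-quartile scaling (0.0229) and on total counts (0.0114). Atf4 and Asns were named after their values were seen.

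Trib3, a pseudokinase that Atf4 targets, rose from 7.38 ± 0.524 to 22.5 ± 0.556 CPM (log2 1.61 ± 0.063, edgeR adjusted p = 3.14e-12). Cebpb rose by 0.35 ± 0.089 (adjusted p = 3.14e-04). The arginine and lysine carrier Slc7a1 fell by 0.74 ± 0.040 on that scale (166.8 ± 5.26 to 100.1 ± 3.60 CPM, adjusted p = 1.98e-10). The neutral amino acid carrier Slc1a4 fell by 0.55 ± 0.098 (25.9 ± 1.70 to 17.7 ± 1.68 CPM, adjusted p = 1.39e-05). These 4 calls held in all 15 alternative fits. The other rises were Ddit4 and Sesn2 and the other falls Shmt2 and Phgdh, named beyond the rule for genes. The calls of Shmt2 and Phgdh were lost without treated replicate 2 (0.0732 and 0.114), that of Phgdh also without control replicate 2 (0.169) or treated replicate 1 (0.0652). The call of Sesn2, whose groups overlapped, was lost in 7 of the 15 fits, among them without control replicate 2 (0.138), treated replicate 1 (0.192) or treated replicate 2 (0.0622).

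**Figure D4:**
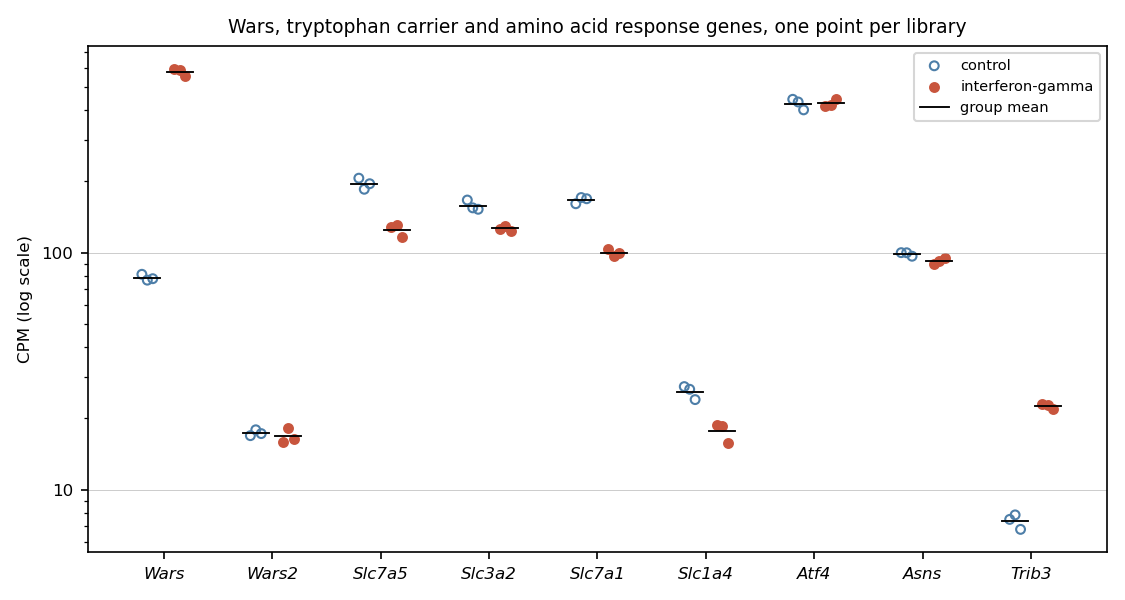
Wars and Wars2 beside tryptophan carrier and amino acid response genes. The y axis gives CPM on a log scale, 1 point per library (open for control, filled for interferon-gamma, n = 3 each) with the group mean as a line. Wars and Trib3 rise, Slc7a5, Slc3a2, Slc7a1 and Slc1a4 fall, and the groups of Wars2 and Atf4 overlap.

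Eprs also belongs to the GAIT complex, which represses translation of selected mRNAs after interferon-gamma in human myeloid cells. Of its 3 partner genes, Gapdh rose by 0.18 (adjusted p = 0.0345) with overlapping groups, Syncrip fell by 0.18 (0.0142) and Rpl13a was at 0.14 (0.0761), the last named after its values were seen. The share called was 66.7%, against 38.1% of all genes tested. The Gapdh call was lost in 7 of 15 fits, among them without control replicate 3 (0.284), control replicate 4 (0.149), treated replicate 1 (0.0811) or treated replicate 2 (0.140). The Syncrip call was lost without control replicate 3 (0.0557) and without treated replicate 2 (0.0973). Rpl13a was called without control replicate 2 (0.0065) or treated replicate 4 (0.0311).

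None of 5 cytosolic elongation factors (log2 -0.06 to 0.09) and none of 9 tested mitochondrial elongation and release factors was called in the edgeR fit. The share over all genes tested was 38.1%. Of 5 trans-editing factors, which clear wrongly charged tRNA, Prorsd1 rose from 6.53 ± 0.319 to 8.15 ± 0.890 CPM (log2 0.32, adjusted p = 0.0340). That call was lost in 8 of 15 fits, among them without control replicate 3 (0.126), control replicate 4 (0.0839), treated replicate 1 (0.0650) or treated replicate 4 (0.161).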

How the data were processed

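Per the labels' protocols, total RNA from a column kit was made into libraries for DNBSEQ sequencing. Each of the 6 samples had 1 table of 14701 genes. The read counts the authors deposited are estimated counts, and in each library 6.80% to 7.37% of genes had a value that was not whole. Members with such values were Iars2, Ears2, Mtfmt and Wars2. The authors also deposited TPM and FPKM values, per the file headers, of which TPM was used for levels between genes and FPKM was not used in any test. The submitters' processing notes list GRCm38.p6, mm10, HISAT2 and HISAT without roles. The counting program was not given in these sources. The deposited strand differed from GENCODE for 7 of the 44 members, Wars included, and the GENCODE strand is given.

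Rounded counts went to edgeR 4.0.16 (R 4.3.3, filterByExpr with a minimum count of 10, which kept 11423 genes and left out 3278, TMM scaling, glmQLFit with robust=TRUE, glmQLFTest, interferon-gamma against control). P-values were adjusted by Benjamini-Hochberg over the 11423 genes, and calls were made under 0.05. An adjusted p given in brackets for an alternative comes from that alternative's fit. CPM were taken on TMM-scaled library sizes. SE are from replicate log2 CPM with a prior count of 2. The fit was also run on simulated counts in which few genes changed. That setting cannot speak to the dependence on scaling seen here, and no conclusion is drawn from it.

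Counts and medians cover all members, of which 1 is not reported here by name. Of other lists, up to 4 genes past the threshold by adjusted p are named, with exceptions stated. Members and lists were chosen with earlier results of these data known. Alternatives were DESeq2 1.42.0, limma-voom (limma 3.58.1), scaling by RLE, upper quartile or total counts, no low-count filter, a filter of 1 CPM or more in 3 samples, a 0.01 threshold, robust=FALSE, the replicate number as a block, Tarsl2 counted as mitochondrial, and each library left out. Those for the context lists and named context genes, and for the 3 ratios between members, were added after seeing the data. Tables and figures were made with pandas 2.3.3, numpy 2.4.6, matplotlib 3.10.9 and scipy 1.17.1 in Python 3.11.15. No column belonged to other samples.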

Additional observations from a re-analysis of the deposited data

How the results depend on the processing

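Wars stayed called in all 15 alternative fits, at 2.82 to 2.92 on the log2 scale, and its differences from the other cytosolic and the mitochondrial medians stayed at 2.78 to 2.83 and 3.05 to 3.24 with each library left out (Wars itself 2.86 to 2.92, and Wars to Wars2 2.87 to 2.98). Counts of called falls moved with scaling and with single libraries, and the causes were not tested. Called falls among the 44 members went from 6 to 11 after upper-quartile scaling, 11 on total counts, 1 at a threshold of 0.01 and 3 to 8 with a library left out, and called rises to 6 to 7. Other cytosolic falls went from 4 to 7, 7, 0 and 2 to 5 in the same order, and rises to 5 to 6. Mitochondrial rises went from 1 to 0 on total counts and at 0.01, and to 0 to 1 with a library left out, and falls from 2 to 1 with DESeq2, with no filter and at 0.01, and to 1 to 3. Over all genes tested 1775 rose and 2823 fell after upper-quartile scaling, and 1644 rose and 3124 fell on total counts, against 2278 and 2069. The medians of all genes shifted by -0.05 and -0.07 then, under 0.1.

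In the context lists, scaffold falls went from 1 to 2 after upper-quartile scaling and on total counts, to 0 at 0.01 and to 0 to 2 with a library left out. Amino acid response falls went from 4 to 7, 7, 2 and 2 to 5 in that order, and rises to 3 to 4. The GAIT rise went from 1 to 0 with both scalings and at 0.01, and to 0 to 2, and the GAIT fall to 0 at 0.01 and to 0 to 1. Cytosolic elongation factors gave 1 fall on total counts and 0 to 1 rises with a library left out. Trans-editing rises went from 1 to 0 with DESeq2, both scalings and at 0.01, and to 0 to 1, and falls from 0 to 1 with RLE and both scalings, and to 0 to 1. Tryptophan and mitochondrial factor counts did not move.

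Libraries shared only a replicate number (2 and 4). Same-numbered libraries correlated at 0.154 and -0.079 in their deviations over 11006 genes. With the replicate block, other cytosolic falls went to 2, scaffold falls to 2, GAIT rises and falls to 0 and trans-editing rises to 0, the calls of Eprs (adjusted p = 0.0677), Tarsl2 (0.155), Phgdh (0.0808), Sesn2 (0.115), Gapdh (0.180), Syncrip (0.124) and Prorsd1 (0.125) were lost and that of Aimp2 (0.0299) was gained, Wars2 turned to 0.0226 and Gatb to -0.0012.

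The sign reversed only in values that were not called. After upper-quartile scaling Hars was at -0.0445, Tars at -0.0404, Fars2 at -0.0381, Dars at -0.0266, Tars2 at -0.0263, Iars2 at -0.0528 and Atf4 at -0.0488. On total counts Hars was at -0.0628, Tars at -0.0589, Fars2 at -0.0569, Dars at -0.0453, Tars2 at -0.0444, Farsb at -0.0119, Qars at -0.0118, Hars2 at -0.0087, Iars2 at -0.0711 and Atf4 at -0.0667. With RLE and with DESeq2 Iars2 was at -0.0062 and Atf4 at -0.0022, and with no filter Iars2 was at -0.0001. With each library left out in turn, values that crossed 0 ran from -0.0188 to 0.0152 for Hars, -0.1546 to 0.0155 for Mtfmt, -0.0736 to 0.1094 for Fars2, -0.0014 to 0.0482 for Tars2, -0.0927 to 0.0408 for Sars2, -0.0052 to 0.0193 for Tars, -0.1066 to 0.0052 for Aars2, -0.0078 to 0.0478 for Dars, -0.0195 to 0.2188 for Nars2, -0.0364 to 0.0198 for Iars2, -0.048 to 0.0356 for Atf4 and -0.5655 to 0.2092 for Slc25a47.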
